A study of Mus musculus with 8 samples.

Results

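The renin-angiotensin system was examined through 9 genes measured in mouse kidney: Ren1, Agt, Ace, Agtr1a, Agtr1b, Agtr2, Atp6ap2, Enpep and Mme. Members were every non-control probe whose gene name on the array was one of these, which gave 10 probes of 55681, and 9 genes of 34650 gene names. Total RNA from whole kidneys of outbred CD-1 mice was labelled with Cy3 and hybridised to 1-colour Agilent arrays. The TAC group (4 arrays) came from mice given tacrolimus, a calcineurin inhibitor used against transplant rejection, at 1 mg/kg/day for 28 days. The CTL group (4 arrays) came from mice of the same stock given physiological serum, also for 28 days. The labels give neither age nor sex, nor do they say whether the numbered replicates are separate animals, so that p-values measure only the spread between these samples. Whole-kidney RNA mixes all cell types of the organ, and fewer cells of a type and less RNA per cell cannot be told apart in any value below.

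Renin, an aspartyl protease that in the kidney is made mainly by juxtaglomerular cells of the afferent arteriole, cuts angiotensinogen, and angiotensin-converting enzyme turns the product into angiotensin II. Angiotensin II acts on AT1 and AT2 receptors, constricts vessels, promotes sodium reabsorption and, through AT1 receptors, lowers renin production by negative feedback. Aminopeptidase A and neprilysin cut angiotensin peptides at the brush border of the proximal tubule, among other sites.

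The results turn on Ren1, so its probe and its promoter are shown, with the probe of Agt, which codes for renin's substrate. The Ren1 probe lies at chr1:135250782-135250841 (mm9, plus strand) and starts at base 202 of the listed transcript, and the Agt probe lies at chr8:127083142-127083201 (mm9, minus strand) and starts at base 1087. Both 60-base probes can be read through without a stop codon in at least 1 frame.
Ren1 probe: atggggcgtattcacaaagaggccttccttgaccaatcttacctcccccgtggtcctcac
Agt probe: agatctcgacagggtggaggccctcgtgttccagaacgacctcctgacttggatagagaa
The 250 bases before the Ren1 start site in RefSeq's GRCm38.p6 annotation (chr1:133350424-133350673, plus strand) hold the TATA box sequence TATAAA, in capitals, 29 to 24 bases before that site.
Ren1 promoter: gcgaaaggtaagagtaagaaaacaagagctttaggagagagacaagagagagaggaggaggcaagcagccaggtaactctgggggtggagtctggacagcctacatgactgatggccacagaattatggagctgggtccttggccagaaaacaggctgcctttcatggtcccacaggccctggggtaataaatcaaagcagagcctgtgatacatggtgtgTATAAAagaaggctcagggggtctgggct
Searched on both strands, with 50 bases after the start site included, TATAAA was in 13.6% of the 32851 promoters of the same length. The cAMP response half-site TGACG, in 20.8% of promoters, was not in the Ren1 window. A match describes the letters only.

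Ren1 had the largest difference between the groups among the 7 members that could be tested, and it did not pass the test over all genes. Levels are log2 processed signals from which each array's own 75th percentile was subtracted, so that 0 marks that percentile. Ren1 levels were 1.23, 2.45, 2.31 and 2.40 in TAC replicates 1 to 4, against 2.24, 3.44, 3.78 and 3.55 in CTL replicates 1 to 4. The groups overlapped: CTL replicate 1 lay below TAC replicates 2, 3 and 4, while the other CTL arrays lay above all TAC arrays. On the scanner's own scale the Ren1 probe read 2488, 5052, 3337 and 4057 intensity units in TAC kidneys, against 4940, 9475, 10893 and 10160 intensity units in CTL kidneys.

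The mean Ren1 level was 2.10 ± 0.58 in TAC kidneys and 3.25 ± 0.69 in CTL kidneys (SD, n = 4 each). The log2 difference, TAC minus CTL, was -1.16 ± 0.39 (SE, 95% confidence interval -2.05 to -0.27), a 2.23-fold lower level in TAC kidneys with an interval of 1.21-fold to 4.13-fold. Limma gave an unadjusted p of 0.0166 and an adjusted p of 0.228 over the 25127 genes tested, and an exact two-sided permutation test, with 70 ways to assign the arrays, gave p = 0.1143. By unadjusted p, Ren1 ranked 1831 of 25127. A fitted difference of -1 or lower was found for 122 genes, 0.486% of those tested. Without CTL replicate 1, the array inside the TAC range, the difference was -1.50 and limma's adjusted p was 0.112, and without TAC replicate 1 the values were -0.87 and 0.335.

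**Figure D1:**
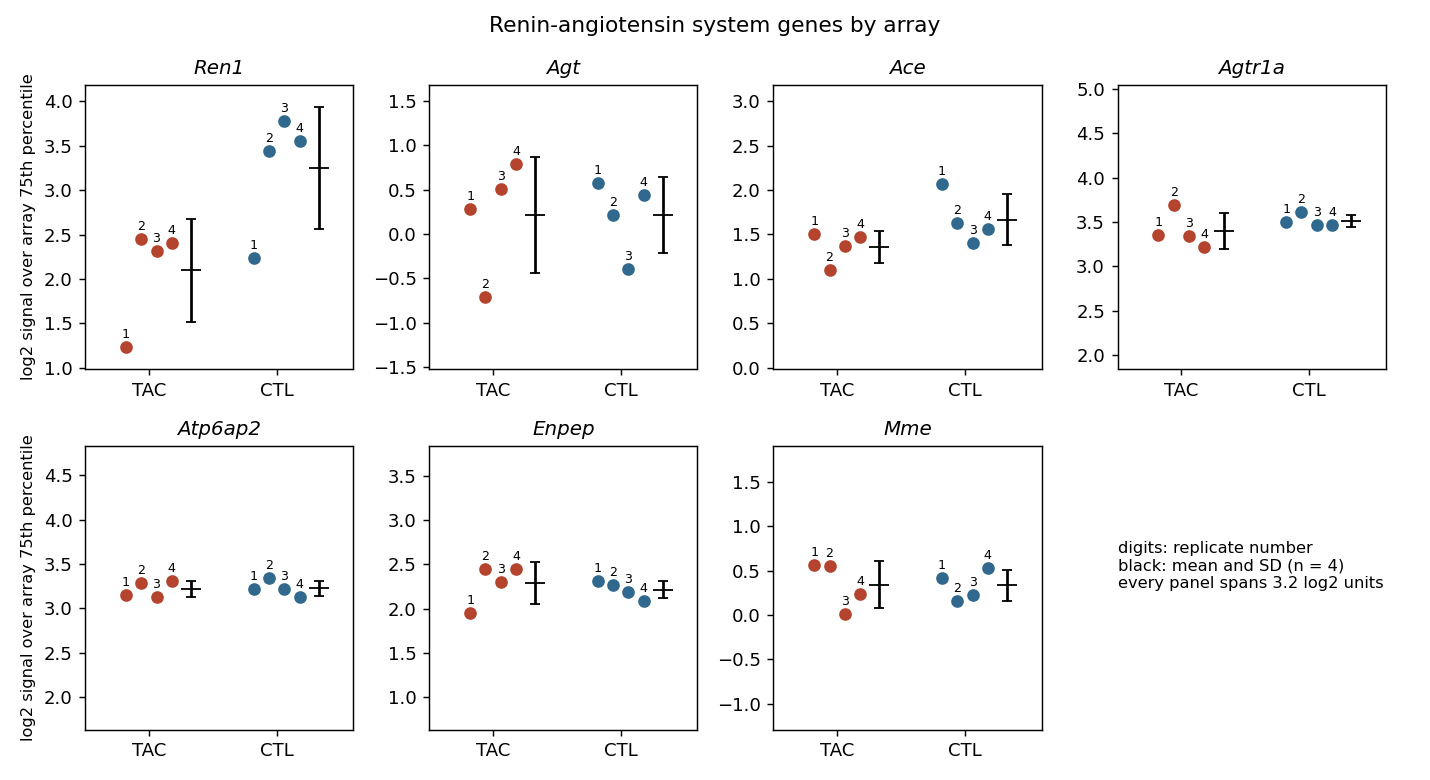
Level of each tested renin-angiotensin gene on each array (log2 processed signal minus the array's 75th percentile), with TAC to the left of CTL in each panel; points are arrays numbered by replicate, and black bars are the group mean and SD (n = 4 each). The Ren1 panel has 3 CTL arrays above every TAC array and CTL replicate 1 at 2.24 among the TAC values, while the groups overlap in the other panels too.

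Agt, the gene of angiotensinogen, did not differ detectably. Its levels were 0.28, -0.71, 0.51 and 0.79 in TAC kidneys, against 0.58, 0.21, -0.39 and 0.44 in CTL kidneys. Each group held an array below 0, TAC replicate 2 and CTL replicate 3, and the arrays were otherwise interleaved. The difference was 0.011 ± 0.34 (SE), with a 95% interval of -0.76 to 0.78 and an adjusted p of 0.992 by limma, so that a 1.69-fold lower level still lay within the interval. Atp6ap2 codes for the (pro)renin receptor, which is also an accessory protein of the vacuolar proton pump. It was the steadiest member, with levels of 3.15, 3.29, 3.13 and 3.31 in TAC kidneys, against 3.22, 3.34, 3.22 and 3.13 in CTL kidneys. All 8 Atp6ap2 values lay within 0.21 log2 units, whereas Ren1 spanned 2.55. The Atp6ap2 difference was -0.0053, with a 95% interval of -0.21 to 0.20 and an adjusted p of 0.985 by limma. Its probe lies at chrX:12193624-12193683 (mm9).

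Ace codes for angiotensin-converting enzyme, which makes angiotensin II and also degrades bradykinin (probe at chr11:105850398-105850457, mm9). Ace levels were 1.50, 1.10, 1.37 and 1.47 in TAC kidneys, against 2.07, 1.63, 1.40 and 1.56 in CTL kidneys. CTL replicate 3 lay among the TAC arrays, the other CTL arrays lay above them, and the group means differed by about the spread between arrays. The means were 1.36 ± 0.18 in TAC kidneys and 1.66 ± 0.29 in CTL kidneys (SD, n = 4 each). The difference of -0.30 ± 0.16 (SE, 95% interval -0.67 to 0.062) had an unadjusted p of 0.0922 and an adjusted p of 0.387 by limma, and an exact permutation p of 0.1143. Without CTL replicate 1 the Ace difference was -0.17 (adjusted p = 0.599 by limma), and without CTL replicate 3 it was -0.39 (adjusted p = 0.457 by limma).

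Enpep codes for aminopeptidase A, which trims angiotensin II to angiotensin III (probe at chr3:128972910-128972969, mm9). Its levels were 1.95, 2.45, 2.30 and 2.45 in TAC kidneys, against 2.31, 2.27, 2.19 and 2.09 in CTL kidneys, with TAC replicate 1 the lowest of all arrays. The difference was 0.077 (95% interval -0.22 to 0.37, adjusted p = 0.804 by limma). Mme codes for neprilysin, an endopeptidase that can form angiotensin 1-7, and had a probe at chr3:63184793-63184852 and another at chr3:63185750-63185809 (mm9). The brighter probe read 0.56, 0.55, 0.01 and 0.24 in TAC kidneys, against 0.42, 0.16, 0.22 and 0.53 in CTL kidneys. The groups were interleaved, and the difference was 0.0062 (95% interval -0.34 to 0.35, adjusted p = 0.990 by limma). The other Mme probe read 0.48, 0.41, -0.21 and -0.02 in TAC kidneys, against 0.28, 0.03, 0.23 and 0.41 in CTL kidneys, so that both probes had their lowest value in TAC replicate 3.

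Agtr1a codes for the main AT1 receptor of the mouse kidney (probe at chr13:30474638-30474697, mm9). Its levels were 3.35, 3.69, 3.34 and 3.22 in TAC kidneys, against 3.50, 3.61, 3.47 and 3.47 in CTL kidneys. TAC replicate 2 was the highest of all arrays and the other TAC arrays lay below all CTL arrays. The difference was -0.11 (95% interval -0.37 to 0.15, adjusted p = 0.646 by limma, exact permutation p = 0.3143). The other receptor members, Agtr1b and Agtr2, were well above background on too few arrays to be tested. Agtr1b, the other mouse AT1 receptor gene (probe at chr3:20213539-20213598, mm9), read 4.9, 9.2, 2.1 and 10.7 intensity units in TAC kidneys, against 10.2, 4.2, 25.4 and 9.6 in CTL kidneys, and only CTL replicate 3 was well above background. Agtr2, the AT2 receptor gene (probe at chrX:21065564-21065623, mm9), read 7.0, 3.0, 2.2 and 4.6 intensity units in TAC kidneys, against 4.2, 2.8, 2.8 and 12.0 in CTL kidneys, with no array well above background. The lowest signal marked well above background was between 10.0 and 14.5 intensity units on each array, so that no fold is given for either receptor.

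Of the 9 members, 7 passed the filter on dim probes, which asked that 4 or more of the 8 arrays be well above background. Limma called 0 of these 7 at an adjusted p under 0.05, where 57 of 25127 genes (0.227%) were called. At an unadjusted p under 0.05, 1 of the 7 (Ren1) passed, against 15.5% of all genes tested. The groups of 0 members were free of overlap, against 10.1% of all genes. The median difference of the 7 was -0.0053, and that of all genes tested was -0.054.

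**Figure D2:**
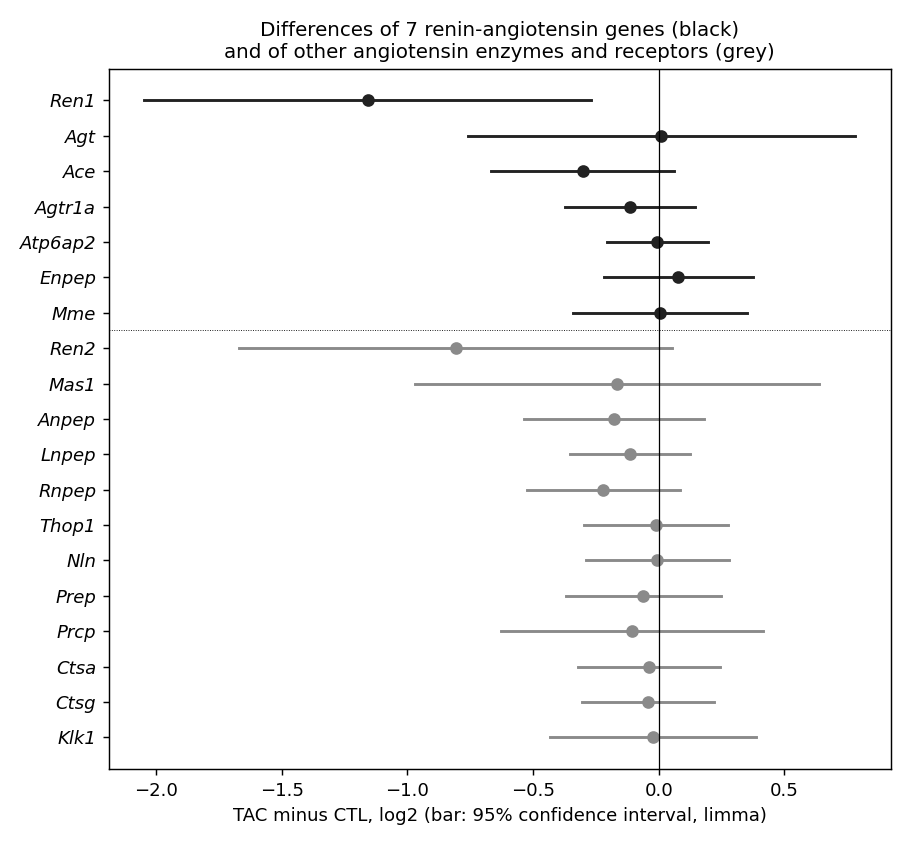
Fitted difference, TAC minus CTL in log2 units, with 95% confidence intervals from limma for the 7 tested renin-angiotensin genes (black) and for 12 other angiotensin enzymes and receptors (grey). Ren1 at -1.16 is the only gene whose interval leaves out 0, and Ren2 at -0.81 is the next lowest.

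The other angiotensin peptide enzymes and receptors, a list of 16 genes of which 12 were tested, had 0 called. At an unadjusted p under 0.05 by limma 0 passed, against 15.5% of all genes, and the median difference was -0.083. Ren2, a renin gene that some mouse strains carry beside Ren1 and whose sequence is nearly identical to it, had levels of 5.75, 6.72, 6.48 and 7.07 in TAC kidneys, against 6.31, 7.55, 7.70 and 7.69 in CTL kidneys. As for Ren1, CTL replicate 1 lay within the TAC range and the other CTL arrays lay above it. The Ren2 difference was -0.81 ± 0.38 (SE, 95% interval -1.67 to 0.053, adjusted p = 0.341 by limma). The Ren2 probe was well above background on 4 TAC and 4 CTL arrays and read higher than the Ren1 probe on each. Whether the Ren1 and Ren2 probes each bind only their own transcript was not checked. Which of these mice carry Ren2 is therefore not known, and the values of the pair cannot be taken as independent.

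Mas1, the receptor for angiotensin 1-7, differed by -0.17 (95% interval -0.97 to 0.64, adjusted p = 0.847 by limma). Among 11 genes of AT1 receptor coupling, 0 were called. At an unadjusted p under 0.05 by limma, 1 was higher (7.04% of all genes were) and 0 were lower (8.42% of all genes were). The higher gene was Arrb2, which codes for beta-arrestin 2, at 0.58 (unadjusted p = 0.0146, adjusted p = 0.221 by limma).

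The juxtaglomerular and renin lineage list had 14 of its 15 genes tested, with 0 called, and at an unadjusted p under 0.05 by limma 1 was higher (7.04% of all genes were) and 3 were lower (8.42% of all genes were). Akr1b7, an aldo-keto reductase known to mark renin cells in the mouse, had levels of -0.35, 0.36, 0.13 and 0.81 in TAC kidneys, against 0.86, 1.78, 2.14 and 2.03 in CTL kidneys. Every CTL array lay above every TAC array, as was so in that direction for 5.75% of all genes. The Akr1b7 difference was -1.47 ± 0.33 (SE, 95% interval -2.21 to -0.72), with an unadjusted p of 0.00180 and an adjusted p of 0.0993 by limma, and an exact permutation p of 0.0286, the smallest that 4 against 4 arrays can give.

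Gja5, which codes for the main connexin, a gap junction protein, between renin cells, differed by -0.88 (unadjusted p = 0.0210, adjusted p = 0.248 by limma), and its other detected probe by -0.63. Gjc1, another connexin gene, differed by 0.48 in the opposite direction (unadjusted p = 0.00318, adjusted p = 0.124 by limma), with no overlap between the groups. Crem, a cAMP-responsive transcription factor, differed by -0.29 (adjusted p = 0.252 by limma), and its other detected probes by -0.25 and -0.13. The median difference of the list was -0.0029. Of the 6 macula densa genes, 0 were called and 2 had lower levels by unadjusted p under 0.05 by limma, as had 8.42% of all genes. Ptgs2, the inducible cyclooxygenase whose prostaglandins stimulate renin release, differed by -1.20 (95% interval -2.32 to -0.089, adjusted p = 0.295 by limma), and by -0.46 after normexp background correction and -0.69 when the deposited value table was fitted. Its signal was dim, with TAC levels of -5.58 to -4.74. The lowest signal marked well above background on TAC arrays was at -6.12 on average. CTL replicate 1, at -5.47, lay within the TAC range of Ptgs2. Nos1, the neuronal nitric oxide synthase of the macula densa, differed by -0.30 (unadjusted p = 0.0488, adjusted p = 0.321 by limma), and by -0.18 after normexp background correction. After that correction limma's unadjusted p was 0.0879 for Ptgs2 and 0.116 for Nos1, so that neither passed 0.05.

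**Figure D3:**
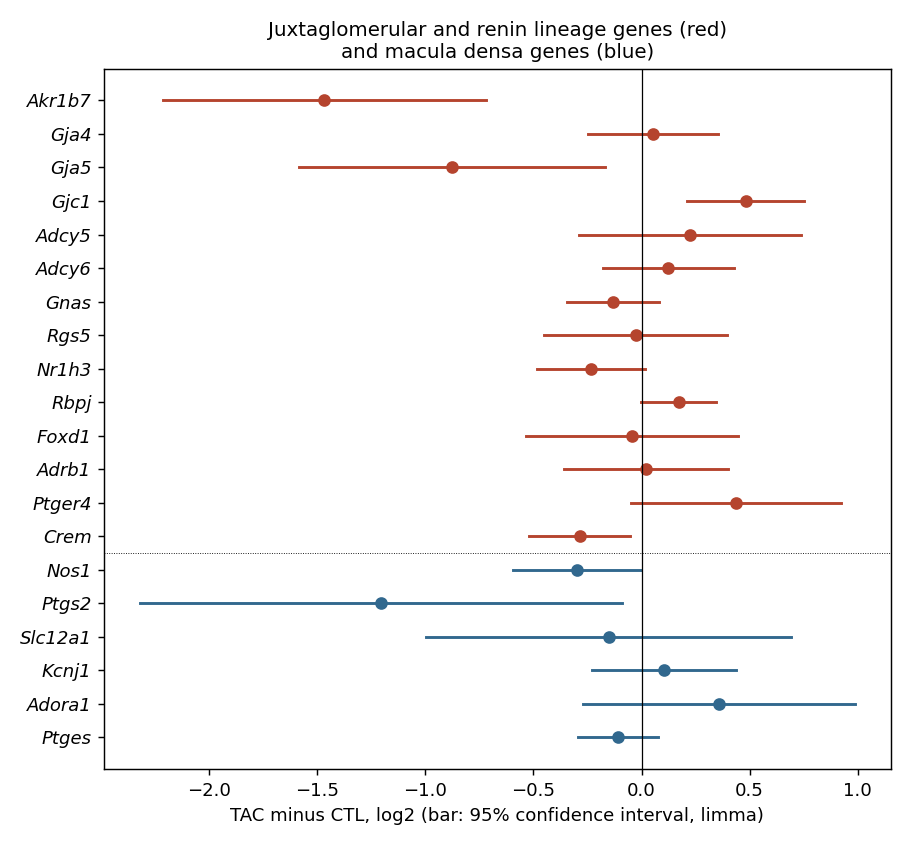
Fitted difference, TAC minus CTL in log2 units, with 95% confidence intervals from limma for 14 juxtaglomerular and renin lineage genes (red) and 6 macula densa genes (blue). Akr1b7 at -1.47, Ptgs2 at -1.20 and Gja5 at -0.88 have the lowest values, Gjc1 at 0.48 lies on the other side of 0, and most intervals include 0.

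The 3 genes whose profile over the 8 arrays came nearest to that of Ren1, among 15602 genes with a symbol, were Ren2, Akr1b7 and Pappa2. Likeness was the root mean square difference after each profile was centred on its own mean, which was 0.231 for Ren2, 0.262 for Akr1b7 and 0.289 for Pappa2, against a spread of 0.801 for Ren1 itself (log2 units). Pappa2, a protease that cuts insulin-like growth factor binding proteins, had levels of -1.95, -0.84, -0.68 and -0.98 in TAC kidneys, against -1.30, -0.22, 0.33 and -0.44 in CTL kidneys. TAC replicate 1 was the lowest TAC array and CTL replicate 1 the lowest CTL array in all 4 of these profiles. The 3 genes were picked for nearness to Ren1, so that shared low arrays largely follow from the choice. The Pappa2 difference was -0.70 (adjusted p = 0.398 by limma), -0.43 without TAC replicate 1 and -0.46 without CTL replicate 3. Profiles on the same arrays share labelling, depth of signal and group, and the measure is a description.

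**Figure D4:**
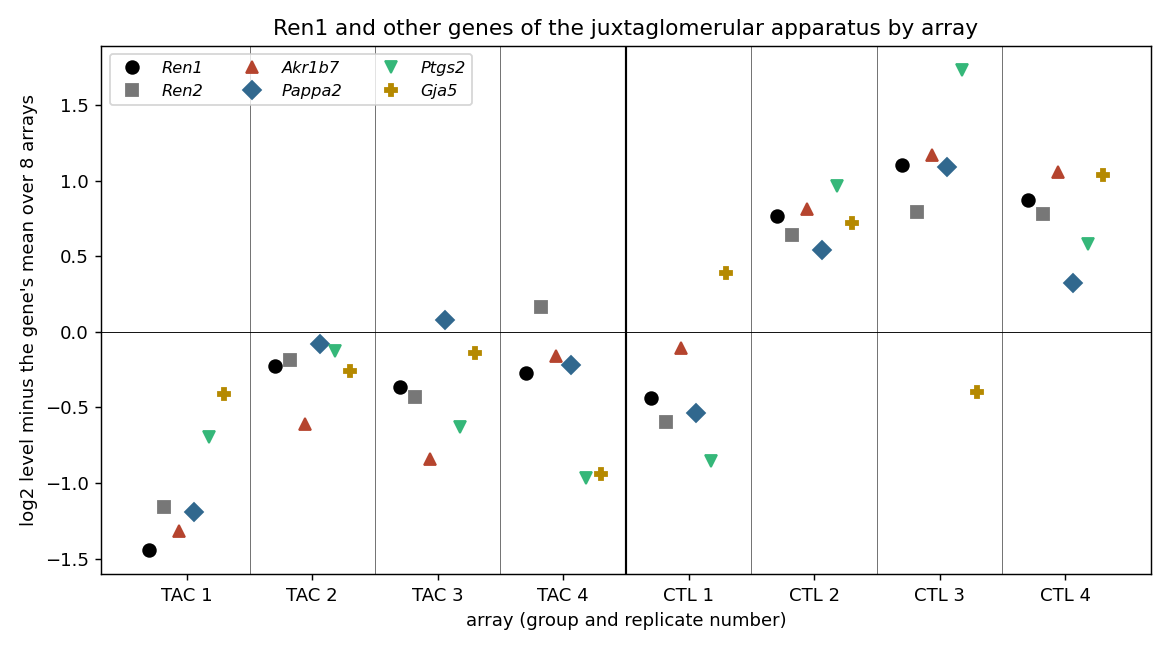
Level of Ren1, Ren2, Akr1b7, Pappa2, Ptgs2 and Gja5 on each array, as log2 level minus the gene's mean over the 8 arrays, with TAC arrays left of the thick line and CTL arrays right of it. Ren1, Ren2, Akr1b7 and Pappa2 keep close together on most arrays. They are lowest in TAC replicate 1 among the TAC arrays and in CTL replicate 1 among the CTL arrays. Ren2, Akr1b7 and Pappa2 were picked for nearness to Ren1, so this likeness largely follows from the choice. Gja5 is lowest among the CTL arrays in CTL replicate 3, where Ren1 is highest. Every gene drawn has a lower mean in TAC kidneys. Gjc1, of the same list as Gja5 and higher in TAC kidneys by 0.48, is not drawn.

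The other members had other neighbours. Nearest to Agt were Akr1c6 (0.179), Adat2 (0.214) and Sec14l3 (0.219), by the same measure and against a spread of 0.477 for Agt itself. Nearest to Ace were Dcun1d2 (0.0736), Znrf2 (0.0878) and Man2b1 (0.0903), against 0.257 for Ace itself. For Agtr1a they were Tceal1, Pisd and Eif4enif1, for Atp6ap2 Lrig3, Klhl22 and Csnk1g1, for Enpep Nme7, Rora and Ptgfr, and for Mme Luzp1, Nos3 and Rtn4rl1, and none of these lists shared a gene.

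Markers of other cell types were measured on the same arrays, and their part in the Ren1 difference was not tested. Of 7 macrophage markers, limma called 0, and by unadjusted p under 0.05, 5 were higher and 1 lower. Over all genes tested, 7.04% were higher and 8.42% lower by that threshold, which are the shares beside each count in this paragraph. The mean level of the macrophage markers relative to the CTL mean ran between 0.61 and 1.23 in TAC kidneys, against -0.29 and 0.29 in CTL kidneys. Of 8 smooth muscle, mesangium and pericyte markers, 0 were called and 3 were higher by unadjusted p under 0.05, and their mean level ran between 0.11 and 0.73 in TAC kidneys, against -0.16 and 0.23 in CTL kidneys. Of 7 adipocyte markers 5 were tested, all 5 higher at an unadjusted p under 0.05 and 0 called, and their mean level was 3.47, 2.53, 2.71 and 6.22 in TAC kidneys, against -0.51, 2.61, -0.99 and -1.11 in CTL kidneys. Plin1 was well above background on 4 TAC arrays and 0 CTL arrays, so it passed the filter through the TAC group alone. For Adipoq the arrays were 4 TAC and 1 CTL, for Cidec 4 and 2, for Retn 4 and 3, and for Cfd 4 and 4. The count of higher adipocyte markers and their mean level thus rest partly on CTL signals not well above background. Lep and Ucp1 did not pass the filter. With that adipocyte level as a covariate the Ren1 difference was -1.26, with an adjusted p of 0.601 by limma. The SE was 0.66, against 0.39 without the covariate. Apart from CTL replicate 2, the adipocyte level separated the groups, so this fit can hardly tell it apart from treatment. Of 15 brush border markers of the proximal tubule, 0 were called and 1 had a lower level by unadjusted p, at 0.0375 by limma, Aqp1, which codes for a water channel, at -0.23, and 0 of 8 endothelial and 0 of 6 podocyte markers passed at that level.

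All 8 arrays lay on 1 slide, with TAC arrays in row 2 and CTL arrays in row 1, so that slide row and treatment cannot be told apart, and in both groups the replicate number is the slide column. Mean local background was 20.4 to 21.9 intensity units for TAC and 23.3 to 23.4 for CTL. The share of non-control spots well above background was 64.0% to 69.8%, and none was saturated. Ddx3y, a Y-linked gene, had a mean level of 1.50 in TAC kidneys and 1.51 in CTL kidneys. Precision is limited by the number of arrays.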

How the data were processed

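Kidney RNA of 4 TAC and 4 CTL samples (0.2 ug, RIN 9, per the labels) was measured on 1-colour arrays, grouped by the labels' treatment. The deposited scanner files hold intensities per spot which, per the file headers, came from version 10.7.3.1 of Agilent's Feature Extraction, including a processed intensity with background subtracted; arrays are not normalized to each other. The deposited value table holds log2 values that equal, within 5e-09, the quantile-normalized raw median intensity without background subtraction; the submitters' processing notes name limma. Its column medians were 6.31, 6.31, 6.30 and 6.31 for TAC replicates 1 to 4 and 6.32, 6.31, 6.30 and 6.31 for CTL replicates 1 to 4. Genes were not centred.

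Levels were computed here as log2 processed intensity minus the array's 75th percentile over non-control spots. Control and outlier spots (147 to 194 per array) and 32 probes with a missing value were left out, and spots of a probe were averaged. Of 55681 probes, 36493 well above background on at least 4 of 8 arrays were kept. The brightest probe stood for a gene, and 25127 genes and unnamed transcripts were fitted with limma 3.58.1 in R 4.3.3 (lmFit, eBayes, two-sided, Benjamini-Hochberg over all). Symbols were updated through accessions in RefSeq's GRCm38.p6 table, which matched 28026 probes and renamed 1651. Probe positions are the array annotation's, on mm9. RefSeq's promoter table held an entry for 8 of the 9 members, and the Ren1 promoter is shown. On simulated arrays of this comparison (25127 genes), 67% of 100 genes changed by 1 log2 unit and 91% of 100 changed by 2 were recovered, with 9 of 167 calls false. The simulated noise was independent between genes and held no pattern shared across an array, so these shares need not hold for the real arrays. They are averages over genes of unlike spread and give no rate for Ren1.

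The members, the gene lists and the naming rule were chosen with earlier results of these data known. The rule names all members, the other angiotensin enzymes and receptors, up to 4 genes per further list by lowest unadjusted p, and the 3 genes nearest in profile to each member. Alternatives were other scalings, background corrections and filters, averaged probes, limma's trend and array weights, an adipocyte covariate, a block for the replicate number, and leaving out arrays. A further gene of these lists, and a ratio that uses it, are not reported here, and the counts of the lists leave that gene out.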

Additional observations from a re-analysis of the deposited data

Results flagged for a closer look

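In each group of 4 arrays, the highest and lowest level of 17 named genes (34 groups) were compared with the rest. The gap of an extreme array to its nearest neighbour exceeded Dixon's 95% critical value, as a share of the group's range, in 2 of the 34 groups, and chance alone gives about 1 in 20. Ren1 in TAC replicate 1 was 1.23, against 2.31 to 2.45 in the other TAC arrays (0.886 of the range). Ren2 in CTL replicate 1 was 6.31, against 7.55 to 7.70 in the other CTL arrays (0.893 of the range). The cause was not tested.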

How the results depend on the processing

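Ren1 stayed lower in TAC kidneys under every alternative run, with differences of -1.50 to -0.87 when 1 array was left out and -1.29 to -1.10 otherwise, and limma's adjusted p between 0.0446 and 0.601. Of 340 comparisons with an alternative, 311 kept their direction and side of the threshold, 2 passed it and 27 changed sign. Both passes came with the replicate number as a block: Ren1 (adjusted p = 0.0446), the only member called, and Akr1b7 (0.0486). Fitted over all probes with that block, Ren1 had an adjusted p of 0.0607 and no member probe was called. Same-numbered arrays deviated together with correlations of only 0.021 to 0.156, over 0.1 in 2 of 4 pairs, although 7 of 8 arrays correlated best with their own number, so the numbers, which are also the slide columns, were not taken as pairs. These correlations cover all genes and do not describe Ren1 itself. Ren1 differences within a number were -1.01, -0.99, -1.47 and -1.16, and the SE of its difference was 0.12 with the block, against 0.39 without it. Genes called numbered 57 as reported, 285 with normexp, 180 in the deposited table, 32 without a filter, 151 with the filter on all arrays, 221 with an intensity trend, 309 with array weights, 103 with the block, 8 without CTL replicate 2 and TAC replicate 4, 0 with the adipocyte covariate (2186 at an unadjusted p under 0.05 by limma) and 7 to 56 leaving out 1 array (7 without CTL replicate 2, 13 without CTL replicate 3 or 4, 18, 22 and 33 without TAC replicate 1, 2 and 3). Genes called in the other lists, 0 as reported, numbered 5 with normexp, 3 in the deposited table, 2 with the filter on all arrays, 5 with the trend, 5 with array weights, 4 with the block and 2 without that pair of arrays. The sign changes follow. Agt was -0.041 with median normalization, -0.014 in the deposited table, -0.15 with array weights, -0.18 without that pair, -0.48 with the covariate and -0.19 to 0.32 leaving out 1 array. Atp6ap2 was 0.066 with quantile normalization, 0.049 in the deposited table, 0.00096 without that pair and -0.038 to 0.032 leaving out 1 array. Mme was -0.046 with median normalization, -0.032 with normexp, -0.027 in the deposited table, -0.033 as the mean of probes, -0.017 without that pair and -0.067 to 0.12 leaving out 1 array. Enpep was -0.037 with the covariate, and Mas1 -0.37 to 0.098 leaving out 1 array. Without a sign change, Agtr1a ranged between -0.21 without TAC replicate 2 and -0.022 without that pair, and Enpep between 0.0012 with array weights and 0.19 without TAC replicate 1. Median normalization moved the median of all genes to -0.11. The causes of these shifts were not tested.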
